A study of Mus musculus with 6 samples.

Results

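The immunoglobulin heavy chain constant genes and the joining chain gene were followed in cultured mouse CD8+ T cells. The 9 genes were chosen by name from the 57126 genes of the deposited count table. They are Ighm, Ighd, Ighg3, Ighg1, Ighg2b, Ighg2c, Ighe, and Igha, which are the 8 constant genes of the heavy chain cluster, and Jchain. They were picked with the difference between these groups in view, so their values and fold changes are given as a description, without p-values. The question was whether Igha was higher by itself, as a transcript induced by TGF-β would be, or together with B cell genes.

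RNA sequencing was performed on CD8+ T cells of OT-I transgenic mice, whose T cell receptor recognizes an ovalbumin peptide. The cells came from lymph nodes and spleens by magnetic isolation, were expanded with nanoparticle artificial antigen-presenting cells (nano-aAPCs), and were harvested on day 6. All 6 samples shared the transgene and the nano-aAPC stimulation, and the age of the mice was not given in the sources used here. The 3 TEff samples were grown with IL-2, and the 3 samples called TRM-like, for tissue-resident memory, also received IL-15 and TGF-β beside that IL-2, so that the effects of IL-15 and TGF-β cannot be told apart. The labels do not say whether the replicates were separate mice or cultures, so the p-values below measure the spread between samples, which may be technical.

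Between 18319013 and 21960760 reads per TEff sample and between 21178756 and 23622621 per TRM-like sample were counted on genes. TRM-like replicates 1 and 2 stood apart, with counts on 35130 and 35559 genes against 24229 to 24908 in the other 4 samples. They also held more scattered counts on 1193 olfactory receptor genes, which T cells do not use, summing to 86.5 and 93.6 CPM (each count scaled to the TMM size of its library) against 8.25 to 17.9 in the other samples. The root mean square log2 difference was 0.273 between TRM-like replicates 1 and 2, and 0.643 and 0.649 between these and replicate 3. TRM-like replicate 3 was at 0.524 and 0.516 from TEff replicates 1 and 3, so it lay closer to them than to its own group. The values of the members are therefore read with TRM-like replicate 3 apart from replicates 1 and 2 as well, and changes in calls without it are given for most gene lists. Genes that mark T cells were present in every sample: Cd8a, the CD8 coreceptor alpha chain, stood at 422 to 448 CPM in TEff and 927 to 989 CPM in TRM-like samples. Other T cell genes differed less. Trbc2, a T cell receptor constant gene, stood at 1835, 1862, and 1808 CPM in TEff and 2124, 2359, and 1244 CPM in TRM-like replicates 1, 2, and 3. Cd3d and Trac also had their lowest level in TRM-like replicate 3. The log2 fold change was 1.14 for Cd8a, 0.34 for Cd3d, 0.13 for Trac, and 0.06 for Trbc2. Cd4, the helper T cell coreceptor, had 0 to 2 counts.

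Heavy chain constant genes encode the part of an antibody that sets its class, IgM, IgD, IgG, IgE, or IgA, and lie in a row behind the V, D, and J segments from which the variable part is assembled. In B cells, each constant gene except Ighd has a promoter of its own ahead of its switch region, which gives a germline transcript that encodes no antibody and precedes class switching to that gene. TGF-β is the cytokine known to start the Igha germline transcript, through SMAD and RUNX factors that bind ahead of the gene. T cells are known to carry transcripts of Ighm that contain no V segment.

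The cluster was annotated on chromosome 12 of GRCm39, on the minus strand. Igha (ENSMUSG00000095079) was at chr12:113218450-113223856 and is the last gene in the direction of transcription. The other gene starts lay 13.0 kb (Ighe), 28.7 kb (Ighg2c), 47.7 kb (Ighg2b), 70.3 kb (Ighg1), 101 kb (Ighg3), 156.1 kb (Ighd), and 162.5 kb (Ighm) before the start of Igha. No other gene of the table overlapped Igha on either strand. Its 2 annotated transcripts both began at the gene's own start, and no exon ahead of it was annotated, so the count of Igha cannot tell a germline transcript from one that carries a V segment.

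The stretch between Ighe and Igha was read for the letters that SMAD and RUNX factors are known to prefer, CAGAC and ACCACA, each on both strands, and for their joined form CAGACCACA, which contains a match of both. The 9023 bases of chr12:113223857-113232879 held 46 matches of CAGAC, 7 of ACCACA, and 1 of CAGACCACA. The 200 bases around the joined match, 5015 bases before the start of Igha (chr12:113228776-113228975, minus strand), are shown with matches on either strand in capitals. They hold 3 of those 7 ACCACA matches and 4 of the CAGAC matches, those inside the joined match included. How often CAGAC and ACCACA fall in other windows of 200 bases was not counted.
Igha upstream window: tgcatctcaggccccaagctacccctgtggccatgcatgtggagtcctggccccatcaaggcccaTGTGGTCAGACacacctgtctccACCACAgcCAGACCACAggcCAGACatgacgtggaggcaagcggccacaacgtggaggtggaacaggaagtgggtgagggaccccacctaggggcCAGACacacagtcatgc
The 9023 bases before each of the other 7 constant genes held 0 matches of the joined form. Over chromosome 12, 12.2% of windows of 9023 bases held it. The window of 200 bases was cut around the match and so had to hold it. A match is a description of the letters and no evidence that a factor bound there.

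Igha encodes the heavy chain of IgA, the antibody of mucosal surfaces, and was far higher in TRM-like cells. It had 137, 96, and 87 counts in TEff replicates 1, 2, and 3 and 4396, 4845, and 3054 counts in TRM-like replicates 1, 2, and 3. As levels, these were 6.26, 4.86, and 4.81 CPM in TEff and 192, 212, and 141 CPM in TRM-like samples. Every TRM-like sample was above every TEff sample, and TRM-like replicate 3 was the lowest of its group. The mean was 5.31 ± 0.826 CPM in TEff and 181 ± 36.5 CPM in TRM-like cells (SD, n = 3 each), a log2 fold change of 5.09 (SE 0.22). Against the TEff mean, TRM-like replicates 1, 2, and 3 were 36.1-fold, 39.9-fold, and 26.5-fold higher. Among the 14822 genes whose count reached 10 in all 6 samples, the log2 fold change of Igha ranked as number 4 from the top. With TRM-like replicate 3 alone against the TEff samples, the log2 fold change was 4.72. RNA from all cells of a culture was pooled, so more cells with Igha RNA and more Igha RNA per cell cannot be told apart.

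**Figure D1:**
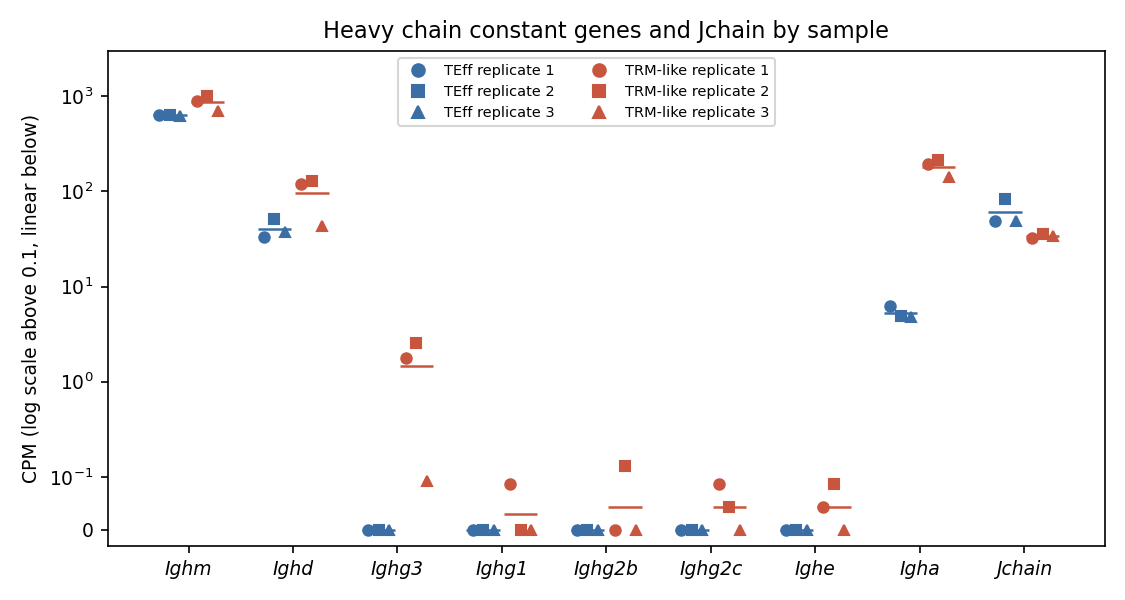
The level of each of the 9 genes is plotted in CPM (vertical axis, log scale above 0.1 and linear below) for every sample, with a line at the mean of each group. Igha is the gene with the widest gap between groups among those with counts in both, at 4.81 to 6.26 CPM in TEff and 141 to 212 CPM in TRM-like samples, while Ighd overlaps and Jchain lies lower in TRM-like samples.

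Ighm, which encodes the heavy chain of IgM and is the first constant gene of the row, was the highest of the cluster in both groups. It had 13804, 12561, and 11282 counts in TEff and 20540, 23066, and 15110 counts in TRM-like replicates 1, 2, and 3. Its level was 631, 636, and 624 CPM in TEff and 896, 1008, and 697 CPM in TRM-like samples. The groups did not overlap, but TRM-like replicate 3 lay only 1.11-fold above the TEff mean, against 1.42-fold and 1.60-fold for replicates 1 and 2. The log2 fold change was 0.46 (SE 0.16), and 0.14 with TRM-like replicate 3 alone.

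Ighd encodes the heavy chain of IgD, and in B cells its RNA is spliced from the same precursor as that of Ighm. Its level was 33.5, 51.3, and 37.0 CPM in TEff and 118, 128, and 43.7 CPM in TRM-like replicates 1, 2, and 3. TRM-like replicates 1 and 2 were high, while replicate 3 lay inside the range of the TEff samples, so the groups overlapped. The log2 fold change was 1.25 (SE 0.36) over all samples and 0.10 with TRM-like replicate 3 alone. Igha thus differed from Ighm and Ighd in that TRM-like replicate 3 also lay far above the TEff samples.

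The constant genes between Ighd and Igha had few or no counts. Ighg3, the constant gene of IgG3, had 0 counts in every TEff sample and 41, 58, and 2 counts in TRM-like replicates 1, 2, and 3. TRM-like replicates 1 and 2 held nearly all of these counts, and the 2 counts of replicate 3 lie under the 3 counts that a count of 0 allows. Taking 3 counts over the TEff group as its upper limit, the TRM-like mean of Ighg3 was at least 29.9-fold higher. The same libraries held the scattered counts on olfactory receptor genes, at 0.534 and 0.578 counts per kb of gene length where Ighg3 had 17.0 and 24.0 counts per kb. The part of the scattered counts in the difference of Ighg3 was not tested.

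Ighg1, Ighg2b, Ighg2c, and Ighe, the constant genes of IgG1, IgG2b, IgG2c, and IgE, had 0 counts in every TEff sample and 2, 3, 3, and 3 counts over the TRM-like group. No more than 3 counts of any of these 4 genes fell in any sample, and TRM-like replicate 3 had 0 counts of each. These values allow no fold change and no statement on a difference at this depth. The IgG genes resemble one another in sequence, and how reads that fit several places were counted was not given in the sources used here, so their low values remain uncertain.

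**Figure D2:**
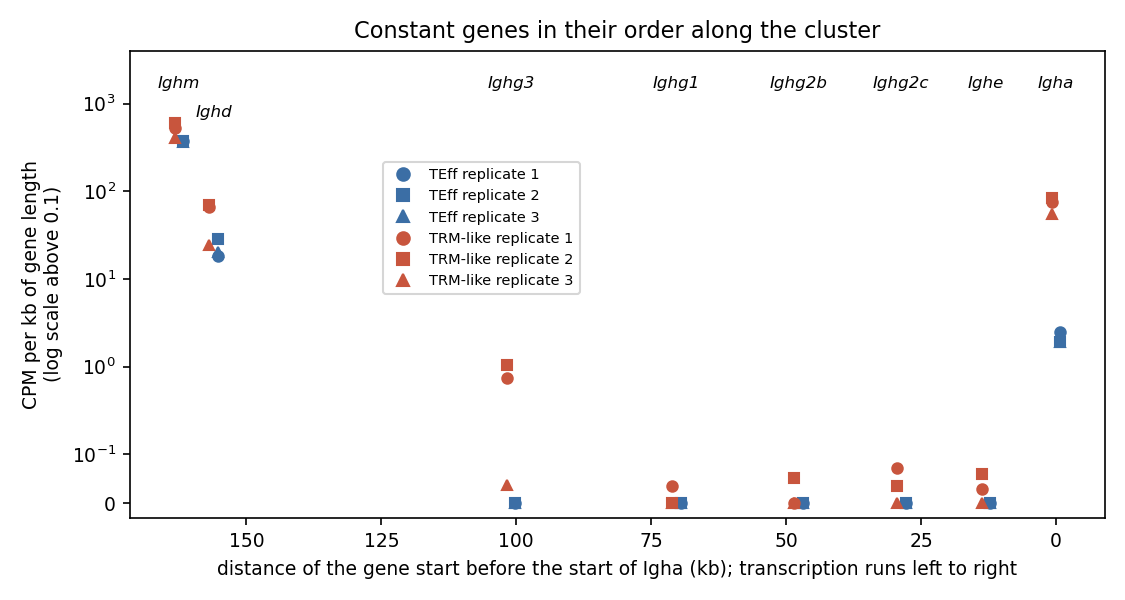
The level per kb of gene length (CPM per kb, vertical axis, log scale above 0.1) is plotted against the distance of each constant gene's start before the start of Igha (kb, horizontal axis), with the points of the groups set slightly apart. Levels are high at Ighm and Ighd on the left, at or near 0 from Ighg1 to Ighe, and high again at Igha on the right in the TRM-like samples.

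Per kb of gene length, the group means were 371 CPM per kb for Ighm, 22.5 for Ighd, and 2.09 for Igha in TEff cells, in that order. In TRM-like cells, they were 510 CPM per kb for Ighm, 71.4 for Igha, and 53.4 for Ighd. The order of Igha and Ighd was thus reversed between the groups. In TRM-like replicates 1, 2, and 3, Igha stood at 75.5, 83.3, and 55.4 CPM per kb and Ighd at 65.5, 70.6, and 24.2 CPM per kb, so Igha was above Ighd within each library while the ranges over the libraries overlapped. In TEff replicates 1, 2, and 3, Ighd was the higher gene in each library, at 18.5, 28.4, and 20.5 CPM per kb against 2.47, 1.91, and 1.89 for Igha.

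Igha took a larger share of the counts on the 8 constant genes in TRM-like samples, near-constant within that group and less even in TEff samples. Its share in TEff replicates 1, 2, and 3 was 0.934% (95% Wilson interval 0.790 to 1.10), 0.702% (0.575 to 0.857), and 0.723% (0.586 to 0.891). In TRM-like replicates 1, 2, and 3, it was 15.9% (15.45 to 16.3), 15.7% (15.3 to 16.1), and 16.0% (15.5 to 16.5). The intervals overlapped within each group, and the groups lay far apart. These intervals cover counting error only. The share of Ighd did not separate the groups, at 4.99%, 7.42%, and 5.57% in TEff and 9.80%, 9.45%, and 4.96% in TRM-like samples. Per 100 Ighm counts, there were 0.993, 0.764, and 0.771 Igha counts in TEff and 21.4, 21.0, and 20.2 in TRM-like samples. TRM-like replicate 3, which stood apart from replicates 1 and 2 over all genes, was close to them in this ratio.

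**Figure D3:**
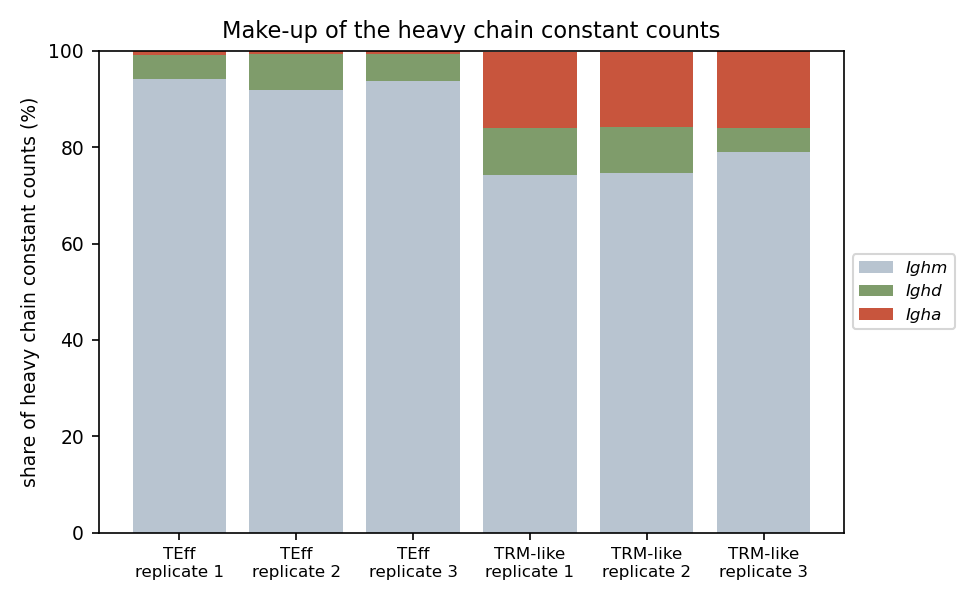
Bars show, for each sample, the share (%) of the counts on the 8 heavy chain constant genes that fell on Ighm, Ighd, and Igha; the other 5 genes are too low to be seen. Igha makes up 0.702% to 0.934% of these counts in TEff samples and 15.7% to 16.0% in TRM-like samples.

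Jchain (ENSMUSG00000067149, chr5:88667668-88675750), which encodes the peptide that joins IgA or IgM units into polymers, was lower in TRM-like cells. Its level was 49.3, 82.7, and 48.2 CPM in TEff and 32.2, 35.8, and 33.7 CPM in TRM-like replicates 1, 2, and 3. The groups did not overlap, and TEff replicate 2 was well above the other TEff samples. The TEff mean was 1.77-fold above the TRM-like mean, with a log2 fold change of -0.83 (SE 0.21). Jchain thus did not follow Igha, and without TEff replicate 2 its log2 fold change was -0.53.

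Of the 9 genes, 5 had at least 1 count in at least 3 samples and entered the fit over all genes. A gene was called where its log2 fold change was beyond 0.58 in size and its adjusted p under 0.05, by the quasi-likelihood test of edgeR after Benjamini-Hochberg correction over the 26154 genes tested. Of all genes tested, 786 (3.01%) were called, 398 (1.52%) higher and 388 (1.48%) lower in TRM-like cells. An unadjusted p under 0.05 by edgeR was reached by 3871 of the 26154 genes. That is the background for the unadjusted counts given for gene lists below. Igha was the 1 member called, and it was called under each of the 14 alternative settings as well. Igha, Ighm, and Ighg3 were above every TEff sample in every TRM-like sample, as were 10.6% of all genes tested, and Jchain was below, as were 9.71%. Since the genes were chosen for this contrast, nothing is read from these counts. Without TRM-like replicate 3, Igha, Ighm, and Ighd were called higher and Jchain lower, where 14% of all genes tested were called. Under DESeq2 (4.8% of all genes called), without a filter (4.42%), and when replicate numbers were a block (7.78%), Igha, Ighd, and Ighg3 were called higher and Jchain lower. With TRM-like replicate 3 alone, Igha was again the 1 member called (3.24% of all genes).

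V genes, which encode most of the variable part of an antibody, had few counts, while J genes had 431 to 790 counts in sum. Over 113 heavy chain V genes, the summed counts were 38, 40, and 28 in TEff and 82, 96, and 34 in TRM-like replicates 1, 2, and 3. TRM-like replicate 3 lay inside the TEff range, and replicates 1 and 2 were the libraries with scattered counts. For every 100 Igha counts, there were 27.7, 41.7, and 32.2 heavy chain V gene counts in TEff and 1.87, 1.98, and 1.11 in TRM-like samples. Igha is the divisor of this ratio, so its lower values in TRM-like samples restate the higher Igha counts. Of the 23 heavy chain V genes tested, Ighv14-2 was called, with 0, 1, and 0 counts in TEff and 10, 20, and 6 in TRM-like samples (log2 fold change 4.57, adjusted p = 0.0387 by edgeR). The 4 heavy chain J genes, which lie just ahead of Ighm, had summed counts of 594, 685, and 431 in TEff and 790, 739, and 659 in TRM-like samples. None of the 4 was called by edgeR or DESeq2. Ighj1 alone passed an unadjusted p of 0.05, with an adjusted p of 0.327 by edgeR (log2 fold change 0.38).

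Light chain genes, whose product every complete antibody needs, were at or near 0 in both groups. Igkc, the kappa light chain constant gene, had 1 count in TEff replicate 1, 1 in TRM-like replicate 2, and 0 in the other samples. Iglc1, Iglc2, Iglc3, and Iglc4, the lambda constant genes, had 0 counts in every sample. The 100 kappa V genes summed to 8, 7, and 7 counts in TEff and 23, 22, and 7 counts in TRM-like samples, and of the 2 tested, none was called by edgeR or DESeq2 and 0 passed an unadjusted p of 0.05. In the TRM-like samples, Igha thus had 3054 to 4845 counts where Igkc had 0 to 1.

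**Figure D4:**
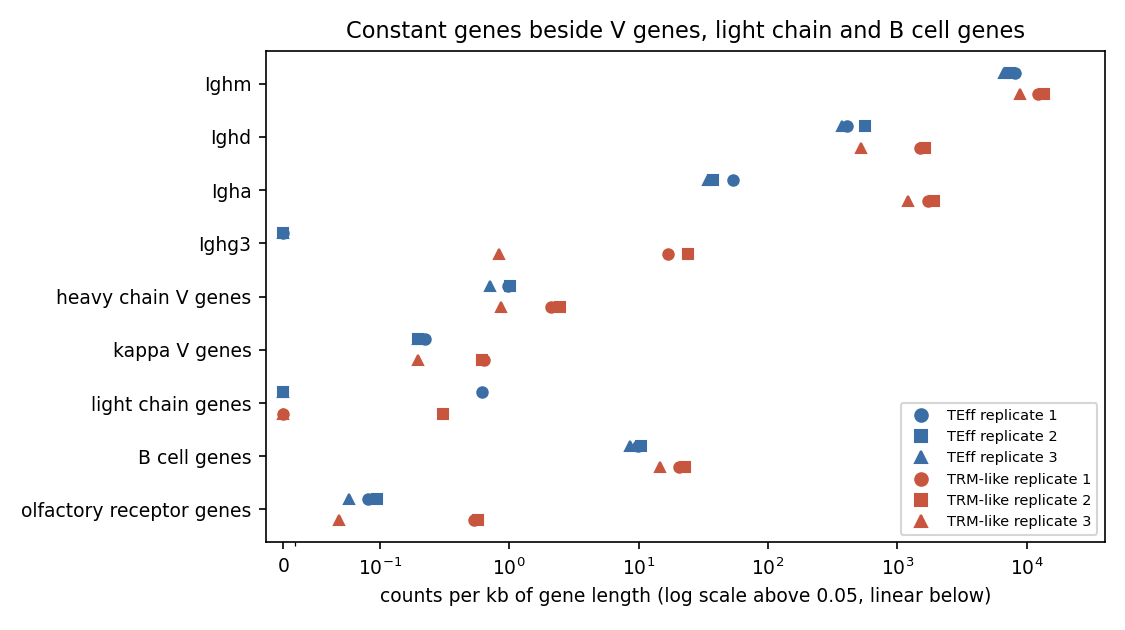
Counts per kb of gene length (horizontal axis, log scale above 0.05 and linear below) are plotted per sample for 4 constant genes and for the sums over V genes, light chain genes, 19 B cell genes, and olfactory receptor genes. Igha in TRM-like samples lies far above the V gene and light chain sums of the same libraries, and TRM-like replicate 3 lies with the TEff samples for the V genes and olfactory receptor genes.

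Genes that define B cells were low in every sample. Ms4a1, which encodes CD20, had 0 counts in every sample except TRM-like replicate 2, with 2 counts. Pax5, the transcription factor that sets B cell identity, had 14 and 10 counts in TRM-like replicates 1 and 2 and 0 in the other samples. Cd79a, which encodes a signaling chain of the B cell receptor, had 25, 40, and 20 counts in TEff and 44, 44, and 19 in TRM-like samples (log2 fold change 0.15, adjusted p = 0.902 by edgeR). Its partner Cd79b stood at 4.57, 4.76, and 5.36 CPM in TEff and 6.46, 8.39, and 6.41 CPM in TRM-like samples, without overlap (log2 fold change 0.53, SE 0.19, adjusted p = 0.226 by edgeR).

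Over the whole list of 19 B cell genes, 15 were tested and 3 called by edgeR, 2 higher and 1 lower. Cd72, a B cell surface receptor, rose from 9.05, 12.2, and 11.1 CPM in TEff to 26.6, 29.6, and 20.0 CPM in TRM-like samples (log2 fold change 1.24, SE 0.19, adjusted p = 0.00887 by edgeR). Tnfrsf13c, which encodes the BAFF receptor, rose from 4.31 to 4.89 CPM in TEff to 8.67 to 11.3 CPM in TRM-like samples (log2 fold change 1.11, SE 0.18, adjusted p = 0.0113 by edgeR). Pou2af1, a coactivator of immunoglobulin promoters, fell from a mean of 0.725 CPM to 0.117 CPM (log2 fold change -2.57, SE 0.56, adjusted p = 0.0449 by edgeR). The median log2 fold change of the tested genes was 0.21, beside 0.02 over all genes. The summed level of the list was 27.3 to 31.5 CPM in TEff and 40.5 to 59.6 CPM in TRM-like samples. No gene of the list was called without TEff replicate 1 or without TEff replicate 3, where 1.04% and 1.08% of all genes were. Cd72 alone was called without TEff replicate 2 (1.43% of all genes). Without TRM-like replicate 3 (14% of all genes), Bank1 and Cd79b were called higher besides Cd72 and Tnfrsf13c, and Pou2af1 lower. Cd22 was called lower in addition without a filter (4.42%), where Pax5 was called higher, and with the replicate block (7.78%). Pou2af1 was not called without TRM-like replicate 1 (443 of 24665 genes called), and Tnfrsf13c was not called without TRM-like replicate 2 (392 of 24682). With TRM-like replicate 3 alone against the TEff samples, the median log2 fold change of the list was -0.35, beside -0.04 over all genes. The part of B cells in the difference of Igha was not tested beyond these levels.

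Genes of antibody-secreting plasma cells gave no call in the fit described above, but some in its alternatives. Of 10 genes, 8 were tested and none was called by edgeR or DESeq2, though 3 (Fkbp11, Irf4, and Prdm1) passed an unadjusted p of 0.05 in edgeR (median log2 fold change -0.18). Fkbp11 and Sdc1 were called lower without a filter (4.42% of all genes) and with the replicate block (7.78%). Without TRM-like replicate 3 (14%), Fkbp11 was called lower. Mzb1, a chaperone of antibody assembly, had 0 counts in every sample. Irf4 and Xbp1, factors that T cells also use, were the highest of the list, with Irf4 at a mean of 128 CPM in TEff and 176 CPM in TRM-like cells (adjusted p = 0.144 by edgeR). Of 9 genes of the MHC class II pathway, which B cells use to present antigen, Ciita, its master regulator, rose from a mean of 0.694 CPM to 4.90 CPM (log2 fold change 2.82, adjusted p = 0.0134 by edgeR). H2-DMa rose (log2 fold change 0.81, adjusted p = 0.0124 by edgeR), and H2-Ob, which encodes a chain of the peptide-loading modulator H2-O, fell (log2 fold change -2.65, adjusted p = 0.0140 by edgeR). None of these 3 genes was called when any TEff sample was left out, and Ciita was not called with TRM-like replicate 3 alone. Without TRM-like replicate 3, 6 genes of the list were called, 4 higher and 2 lower, where 14% of all genes were called. H2-Ab1, one of the surface chains of MHC class II, was not called, at means of 14.4 CPM in TEff and 11.1 CPM in TRM-like cells (adjusted p = 0.569 by edgeR). Of 9 myeloid genes, 7 were tested, none was called by edgeR or DESeq2, and 3 passed an unadjusted p of 0.05. Itgam, Itgax, and Xcr1 were called lower without a filter and with the replicate block, and Adgre1 higher without TRM-like replicate 3. The summed level of the 9 myeloid genes was 4.01 to 9.73 CPM in TRM-like samples and 10.01 to 15.9 CPM in TEff samples.

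Genes known to respond to TGF-β were higher in the cells that had received it. Of 12 genes, all were tested, 7 were called higher and none lower by edgeR and by DESeq2, and 9 passed an unadjusted p of 0.05 in edgeR (median log2 fold change 1.50, beside 0.02 over all genes). The list was written with earlier results of these data known, so its direction is not independent evidence. Pmepa1, a feedback inhibitor of TGF-β signaling, rose from 2.70, 2.03, and 2.65 CPM in TEff to 31.6, 31.8, and 20.8 CPM in TRM-like samples (log2 fold change 3.51, SE 0.23, adjusted p = 0.000151 by edgeR). TRM-like replicate 3 was the lowest of its group for Pmepa1, as it was for Igha, Ighm, Ighd, Cd72, and Tnfrsf13c. It was the highest for Smurf2, another gene of this list, at 60.4 CPM against 56.6 and 54.5 CPM in replicates 1 and 2. Itgae, which encodes the CD103 integrin chain, rose from 22.9, 30.0, and 20.1 CPM to 707, 742, and 284 CPM (log2 fold change 4.57, adjusted p = 0.000447 by edgeR). Cdh1, Ldlrad4, Skil, Ski, and Smurf2 rose as well, with log2 fold changes from 6.83 for Cdh1 to 0.99 for Smurf2. Smad7, an inhibitory SMAD, was not called (log2 fold change 0.50, adjusted p = 0.234 by edgeR). The same 7 genes were called higher in each of the 14 alternative settings, TRM-like replicate 3 alone included.

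The TGF-β receptor genes and the factors known to act on the Igha germline promoter were present, but none was called higher by edgeR. Of 13 genes tested, 2 were called lower and 5 passed an unadjusted p of 0.05. Smad3, a signal carrier of the TGF-β receptor, fell from 16.0, 22.8, and 13.9 CPM in TEff to 1.44, 1.40, and 3.87 CPM in TRM-like samples (log2 fold change -2.98, SE 0.39, adjusted p = 0.00448 by edgeR). Runx1 fell from a mean of 5.12 CPM to 0.678 CPM (log2 fold change -2.90, SE 0.35, adjusted p = 0.00301 by edgeR). Runx3, the RUNX factor of CD8+ T cells, had a log2 fold change of 1.08 (SE 0.33) that missed the threshold in edgeR (adjusted p = 0.150). It stood at 55.5, 91.8, and 52.3 CPM in TEff and 183, 161, and 77.4 CPM in TRM-like samples, so that TRM-like replicate 3 lay inside the TEff range. Runx3 was called higher in DESeq2, without a filter, with the replicate block, and, together with Tgfbr2, without TRM-like replicate 3. Ets1, Tgfbr2, and Elf1 had the highest levels of the list in TEff cells, at means of 522, 216, and 210 CPM in TEff and 463, 314, and 173 CPM in TRM-like cells, and none of these was called by edgeR over all samples.

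**Figure D5:**
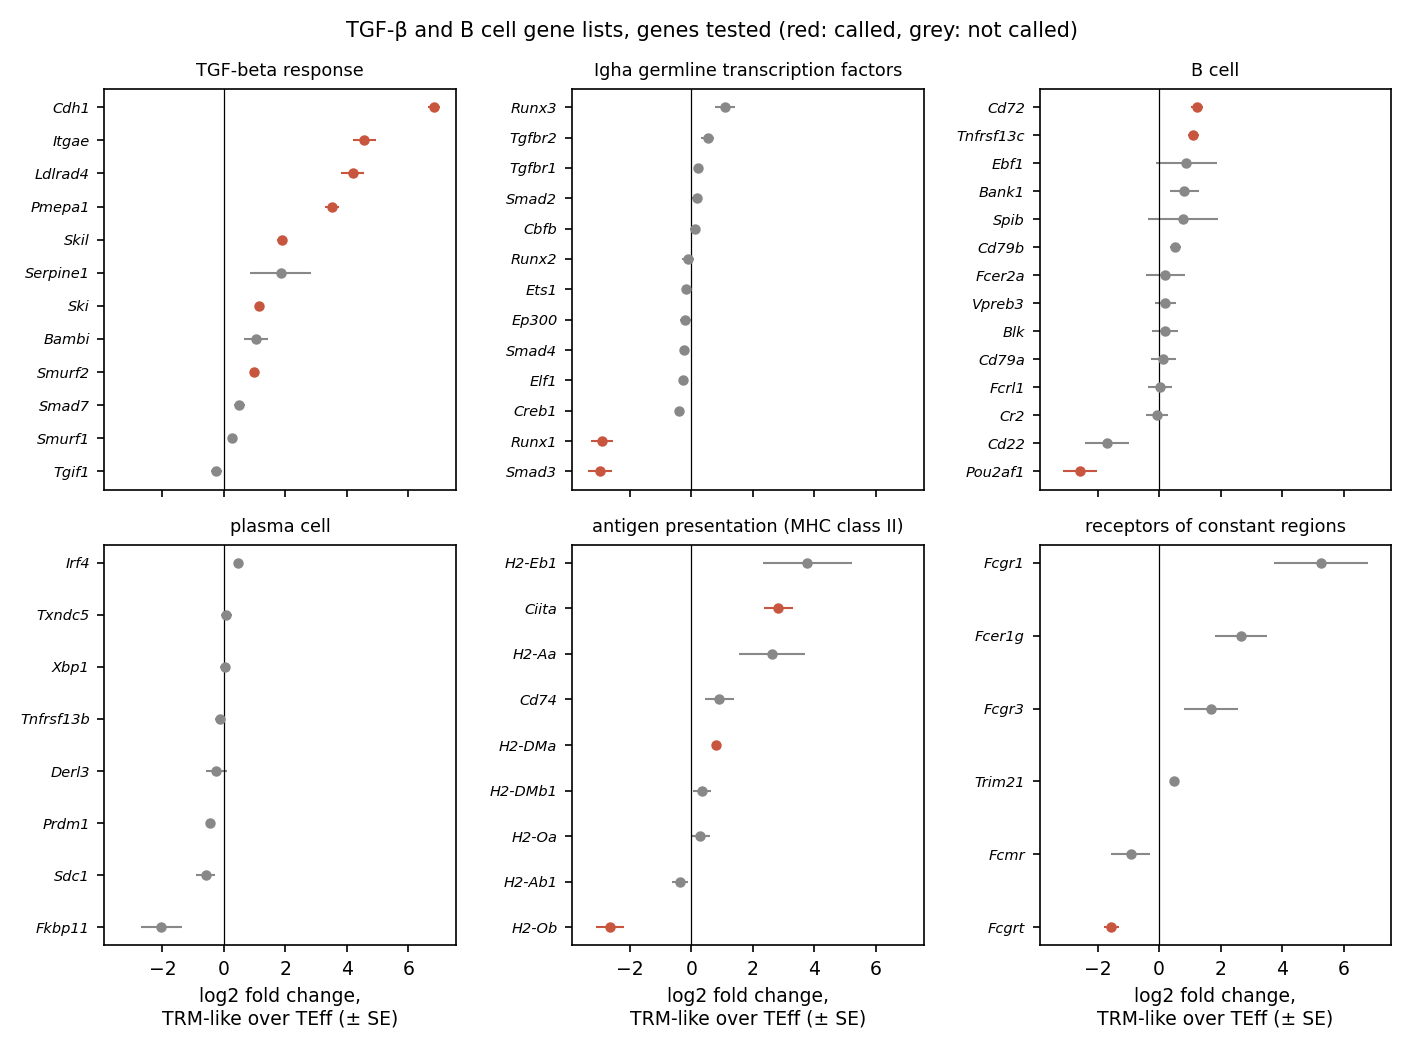
Each point is the log2 fold change of a tested gene, TRM-like over TEff, with its standard error as a bar, in 6 gene lists; red marks genes called by edgeR, and not every tested gene is drawn. The TGF-β response list has 7 called genes, all on the higher side, and the B cell list has 2 higher and 1 lower.

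Receptors and signal carriers that direct switching to other classes moved in both directions. Among these, Ifngr2, a chain of the interferon-γ receptor, rose from a mean of 0.713 CPM to 9.25 CPM (log2 fold change 3.68, adjusted p = 0.000209 by edgeR). Its partner Ifngr1 fell from 584 CPM to 285 CPM (log2 fold change -1.03, adjusted p = 0.0102 by edgeR), a call lost without TEff replicate 3 or without TRM-like replicate 1. Il4ra, a receptor chain for IL-4, which directs switching to Ighg1 and Ighe, was not called (log2 fold change -0.35, adjusted p = 0.377 by edgeR).

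Of 15 genes of switch recombination, 14 were tested, none was called by edgeR or DESeq2, and 0 passed an unadjusted p of 0.05. Without TRM-like replicate 3, 5 of them were called lower, Rif1 included, where 14% of all genes were called. The median log2 fold change of the list was then -0.36, against 0.25 with TRM-like replicate 3 alone. Ung was called lower without a filter, and Exo1 and Ung with the replicate block. Most genes of this list are DNA repair genes that all dividing cells use. Rif1 and Msh6 were among the highest, at means of 190 and 125 CPM in TEff. Of the genes that assemble V, D, and J segments, Rag1 and Rag2 had 0 counts in TEff samples, and 1, 6, and 0 counts of Rag1 and 1, 0, and 0 of Rag2 fell in TRM-like replicates 1, 2, and 3. Dntt, which adds bases at the joints, was lower in all TRM-like samples and missed the threshold (log2 fold change -1.83, adjusted p = 0.0509 by edgeR), though DESeq2 called it.

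Receptors that bind or carry the products of the constant genes differed between the TRM-like libraries. Of 11 genes, 6 were tested, none was called higher by edgeR or DESeq2, and 4 passed an unadjusted p of 0.05 in edgeR. Fcgrt, which encodes the neonatal Fc receptor, was called lower, a call lost without TEff replicate 2, TEff replicate 3, or TRM-like replicate 2, and with TRM-like replicate 3 alone. It fell from 3.84, 6.28, and 4.53 CPM in TEff to 1.57, 1.62, and 1.80 CPM in TRM-like samples (log2 fold change -1.55, SE 0.25, adjusted p = 0.0121 by edgeR). Fcer1g, the signaling chain of Fc receptors, stood at 16.7 and 18.1 CPM in TRM-like replicates 1 and 2 but at 0.922 CPM in replicate 3, below the 1.14 to 2.54 CPM of TEff samples (adjusted p = 0.164 by edgeR). Fcgr3, a receptor of IgG, had the same order, with 121, 140, and 3 counts in TRM-like and 15 to 35 in TEff samples. Fcer1g and Fcgr3 were called higher without TRM-like replicate 3 (together with Trim21), without a filter, and with the replicate block (together with Fcgr1).

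Genes around the constant cluster had log2 fold changes between -1.35 and 1.13, beside 5.09 for Igha. Within 100 kb of either end of the cluster, 40 other genes were annotated, and 14 had at least 10 counts over the samples. None of these 14 was called by edgeR, and 2 had an unadjusted p under 0.05, as had 3871 of all 26154 genes tested. Gm56536, a noncoding RNA gene at chr12:113389573-113390987 between Ighm and the J genes, stood at 34.8, 39.0, and 33.8 CPM in TEff and 68.5, 72.7, and 41.7 CPM in TRM-like samples. Its groups did not overlap, with a log2 fold change of 0.76 (SE 0.20) that missed the threshold in edgeR (adjusted p = 0.0985) and passed it in DESeq2. On the other side, beyond the end of Igha, Tedc1 was at means of 17.8 CPM in TEff and 15.5 CPM in TRM-like cells (adjusted p = 0.813 by edgeR), and Tmem121 had means below 1 CPM.

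The genes most like Igha in their pattern were named by the Pearson correlation of log2 CPM over the 6 samples, among 14452 genes with a mean of at least 1 CPM. Rcbtb2 was first, with r = 0.9996, followed by Ski (0.9983), Apol9a (0.9976), Ccny, and Inpp5d (0.9975 each). Mtmr12, Lrig1, Pmepa1, Adora3, and Entr1 had r from 0.9967 to 0.9961. All points of a correlation share the 6 libraries and the split into groups, and the measure takes no account of size. The log2 fold change was 0.37 for Rcbtb2 and 5.02 for Adora3, beside 5.09 for Igha.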

How the data were processed

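The authors trimmed the reads (Cutadapt 4.8 per the submitters' processing notes), aligned and counted them with Rsubread on GRCm39, and deposited raw read counts per gene with gene lengths. The libraries were stranded, but the strand setting and the handling of multiply mapped reads were not given in the sources used here. No column of per-sample values was left unused (0). Symbols and coordinates came from a GENCODE annotation of the same build, in which 56620 of 57126 genes were found.

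The test was the quasi-likelihood test of edgeR 4.0.16 (glmQLFit, glmQLFTest) in R 4.3.3 with TMM scaling and Benjamini-Hochberg adjustment, over genes detected (1 count or more) in 3 or more samples. The authors state that they removed a batch effect, but the sources used here do not name the batch, so the model held the group alone and the deposited counts carry any such effect. CPM used TMM library sizes. The alternatives were DESeq2 1.42.0, its size factors, library totals, no filter, at least 10 counts in every sample, filterByExpr, the replicate block, each sample left out, and TRM-like replicate 3 alone. The tests were tested on simulated data, in which DESeq2 made more false calls than edgeR.

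The members and gene lists were chosen with earlier results of these data known. Genes were named by a rule: all members, the called genes and the 3 highest of each list, defining B cell genes, neighbors within 100 kb with at least 10 counts, and the 10 genes most correlated with Igha. Some of these are given as ranges or counts. Ighv14-2, Igkv14-111, Iglc2 to Iglc4, Smad7, Runx3, Mzb1, Fkbp11, Prdm1, Sdc1, Bank1, Cd22, Itgam, Adgre1, Ung, Exo1, Fcgr1, Fcgr3, and Cd4 were singled out after their values were seen. A floor of 3 counts stands for a count of 0. Protein sequences were not analysed here. Some genes of the lists are not reported here by name, though they remain in the counts over each list.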

Additional observations from a re-analysis of the deposited data

How the results depend on the processing

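Igha was higher in every alternative, with a log2 fold change of 5.09 that stayed between 4.96 and 5.24 when each sample was left out and was 4.72 with TRM-like replicate 3 alone. Ighm and Ighd moved to 0.14 and 0.10 with that replicate alone. The members called were 1, but 4 under DESeq2, 4 without a filter, 4 with the replicate block, and 1 to 4 with a sample left out, the 4 being without TRM-like replicate 3. Over all genes, the 786 calls became 1256 under DESeq2, 1868 without a filter, 2034 with the replicate block, and 263 to 3579 with a sample left out, the highest without TRM-like replicate 3. The 3 B cell genes called became 5 without a filter, 0 to 5 with a sample left out, and 1 with TRM-like replicate 3 alone. The TGF-β response genes called stayed at 7 throughout. The causes of these shifts were not tested.

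Whether equal replicate numbers stand for paired samples could not be settled. Deviations from a group mean sum to 0 within the group, so their correlations cannot decide it. The correlation of deviations from the group means over 14822 genes was -0.292, 0.309, and 0.389 for numbers 1, 2, and 3, and 0.519 between TEff replicate 2 and TRM-like replicate 1. No sensitivity value was computed for the log2 fold changes of the 5 members with 0 counts in every TEff sample. The group means rest on 3 samples each, and TRM-like replicates 1 and 2 differ from replicate 3 in scattered low counts, so differences carried by those libraries alone, such as that of Ighg3, have 2 samples behind them.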

Other observations

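The D segments of the heavy chain, whose 19 annotated genes lie between the V and J segments, were measured beside the comparisons above. Their summed counts were 46, 47, and 33 in TEff and 57, 48, and 46 in TRM-like replicates 1, 2, and 3, and of the 7 tested, none was called by edgeR or DESeq2 and 1 passed an unadjusted p of 0.05. Ighd4-1, the segment nearest to the J genes, had a mean of 1.76 CPM in TEff and 1.58 CPM in TRM-like cells (adjusted p = 0.840 by edgeR). Igkv14-111, a kappa V gene, was even across the samples, with 8, 7, and 7 counts in TEff and 7, 7, and 6 in TRM-like samples, and it held every kappa V count of the TEff samples.

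Adora3, an adenosine receptor gene whose log2 fold change of 5.02 was close to that of Igha, rose from 0.457, 0.354, and 0.332 CPM in TEff to 16.1, 14.2, and 7.56 CPM in TRM-like samples (SE 0.37, adjusted p = 0.000231 by edgeR). Lrig1, a membrane inhibitor of growth factor receptors, rose from a mean of 3.58 CPM to 42.6 CPM (log2 fold change 3.57, adjusted p = 3.68e-05 by edgeR). Apol9a had 0 counts in every TEff sample and 138, 163, and 69 counts in TRM-like replicates 1, 2, and 3. Among the 21 genes of other tissues read as a measure of scattered counts, 6 were tested, none was called by edgeR or DESeq2, 1 passed an unadjusted p of 0.05, and their summed level was 1.79 and 3.80 CPM in TRM-like replicates 1 and 2 and 0.830 to 1.14 CPM in the other samples.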
